A study of Mus musculus with 4 samples.

Results

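The comparison set mouse embryonic fibroblasts (MEFs) given back wild-type Rb, written WT Rb-HA MEFs, against Rb-deleted MEFs, and asked which transcripts differed once Rb had been returned. Each side was 1 array. Both sides carried the strain label FVB;129 and a conditional Rb allele with LoxP sites, and both had received TAT-Cre, a recombinase protein that enters cells and deletes that allele, in 2 treatments of 1 h given 3 h apart. The WT Rb-HA cells also received a retrovirus carrying HA-tagged wild-type Rb in 2 infections of 1 h, 3 h apart, while the Rb-deleted cells received medium alone at those times. The retrovirus and the Rb it carried therefore cannot be told apart here, and no array of cells given an empty retrovirus was analysed. The other 2 of the 4 arrays, parental MEFs given neither agent and Rb-deleted MEFs given non-phosphorylatable ΔCdk Rb-HA, entered the normalization, and their levels are given beside the results. According to the study's methods, all cells had been released from contact inhibition and treated with doxorubicin, a DNA-damaging topoisomerase poison, which the sample labels do not state. How many embryos or cultures stand behind an array is not given in the labels. Genes were included where 1 of the 2 arrays compared gave a detection p-value under 0.01, and each gene was read from its brightest probe. This gave 12207 of the 12616 genes detected on any of the 4 arrays. Of these, 11241 were detected on both arrays, 761 on the Rb-deleted array alone and 205 on the WT Rb-HA array alone. The 5 genes just inside the detection threshold had a best detection p-value of 0.0096, and the 55 genes just outside it had 0.0107.

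Rb is a pocket protein that binds E2F transcription factors and, in its active state, holds their target promoters silent during G1 phase. The targets supply the proteins that load and fire replication origins, copy the genome, make deoxynucleotides and assemble new chromatin. Loss of Rb in fibroblasts is known to release these genes, and p107 and p130 are the related pocket proteins that can take over part of its work. The core histones of the replication-dependent clusters are needed in the same phase of the cycle but are controlled largely through their own promoter factors and a stem-loop at the end of the message.

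Promoter sequences are shown here for genes on either side of the comparison, because many of the lower genes are classical E2F targets and 17 of the 70 higher genes are cluster histones. They were taken from RefSeq (GRCm38.p6) and cover the 250 bases upstream of the annotated start site, 5′ to 3′ on the strand of the gene. No annotated RefSeq gene overlaps the windows shown. Mcm6, a subunit of the replicative helicase, starts after chr1:128359706-128359955 on the minus strand, Mcm2, another subunit, after chr6:88898781-88899030 on the minus strand, and Rbl1, which encodes p107, after chr2:157204535-157204784 on the minus strand. Capitals mark the E2F words TTTCCCGC, TTTCGCGC, TTTGCCGC and TTTGGCGC, searched on both strands.
Mcm6: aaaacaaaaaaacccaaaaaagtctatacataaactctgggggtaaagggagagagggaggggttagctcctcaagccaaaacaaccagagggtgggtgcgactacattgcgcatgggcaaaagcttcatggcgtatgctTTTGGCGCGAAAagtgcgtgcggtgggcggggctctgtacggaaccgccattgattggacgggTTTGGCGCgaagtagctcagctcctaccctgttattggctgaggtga
Mcm2: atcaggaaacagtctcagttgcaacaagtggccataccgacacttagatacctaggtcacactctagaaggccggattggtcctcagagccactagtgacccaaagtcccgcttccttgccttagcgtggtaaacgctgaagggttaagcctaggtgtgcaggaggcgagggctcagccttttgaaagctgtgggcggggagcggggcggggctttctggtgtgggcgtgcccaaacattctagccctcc
Rbl1: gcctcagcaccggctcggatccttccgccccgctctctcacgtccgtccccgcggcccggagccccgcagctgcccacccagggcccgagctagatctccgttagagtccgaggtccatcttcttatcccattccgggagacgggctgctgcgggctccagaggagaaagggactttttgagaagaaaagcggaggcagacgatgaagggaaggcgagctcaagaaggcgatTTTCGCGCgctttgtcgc
Mcm6 held 3 such words, of which 1 pair overlaps, Rbl1 held 1, and Mcm2 held none in this window. Of the 73 detected genes of the G1/S E2F target list described below, 62 matched a RefSeq promoter and 14 of these (22.6%) held a word. Of the genes analysed, 8101 of 12207 matched, and 4.07% of those held one. Over all 32851 promoter windows of this length, several of which can belong to 1 gene, 1.86% held one. More than 1.6-fold lower with WT Rb-HA were 22 matched list genes, and 8 of these held a word (36.4%). Of all genes analysed, 0.5% passed that margin downward and 0.573% upward. Of the 40 matched list genes within 1.6-fold, 6 held a word (15%). Counted by window the shares were 8 of 29 (27.6%) and 6 of 45 (13.3%), and whether they differ was not tested. For the lower and the higher genes as a whole the same check is void, since too few matched, 43 of 61 and 45 of 70. The share over the genes analysed is likewise incomplete.

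Differences are given on the normalised log2 scale as WT Rb-HA minus Rb-deleted. The value in parentheses after a difference is its bead standard error, which measures the spread of the beads of a probe within the arrays and not the spread between cultures. With 1 array per condition there is no replicate check, and no p-value is given for any difference. Over all 12207 genes the median difference was -0.02, with an SD of 0.26, and 54.4% of genes lay below 0. The median bead standard error of a difference was 0.09. A gene was called higher or lower past 1.6-fold, 0.68 on the log2 scale, the filter of the study. By that rule 131 genes (1.07% of those analysed) differed, 70 higher with WT Rb-HA (0.573%) and 61 lower (0.5%). All 131 exceeded 2 bead standard errors. Past 2-fold there were 24 higher and 11 lower genes. The higher genes included 16 detected on the WT Rb-HA array alone and the lower genes 12 detected on the Rb-deleted array alone, and these had to differ to be counted. With an offset of 50 in place of 16 in the background correction the counts were 32 higher and 23 lower, and without background correction they were 37 and 27. A fold given as at least some value refers to the background-corrected scale and can be smaller without that correction. The gene just inside the threshold on the lower side was Ltb4r1 at -0.68 and the gene just outside was Gloxd1 at -0.68, undetected with WT Rb-HA and so at least 1.36-fold lower, while on the upper side F830002E14Rik at 0.69 lay inside and Sod3 at 0.68 outside.

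**Figure D1:**
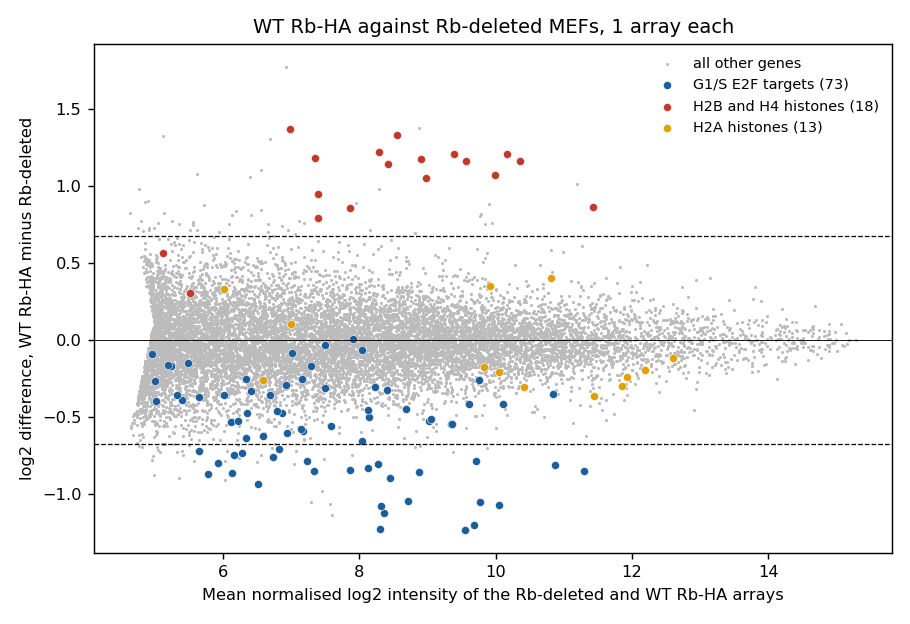
Each point is 1 of the genes analysed, with the mean normalised log2 intensity of the WT Rb-HA and Rb-deleted arrays on the horizontal axis and the log2 difference, WT Rb-HA minus Rb-deleted, on the vertical axis. Dashed lines mark 1.6-fold. G1/S E2F targets (blue) lie below 0 for 72 of 73 genes, H2B and H4 histones (red) above 0 for 18 of 18, and H2A histones (yellow) near 0. The 4 probes without gene annotation, at differences from 5.53 to 7.67, lie above the plotted range.

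Rb1 was read first as a check of the labels. The probe at transcript position 4421 gave intensities of 543 for parental, 160 for Rb-deleted, 181 for WT Rb-HA and 170 for ΔCdk Rb-HA MEFs. The 3 TAT-Cre arrays lay close together and well under the parental array. Between WT Rb-HA and Rb-deleted the difference was 0.19 (0.08). The second probe, at position 4002, had intensities of 56.7 in Rb-deleted and 51.1 in WT Rb-HA MEFs, beside 108 in parental and 52.9 in ΔCdk Rb-HA MEFs, and was undetected with WT Rb-HA. Whether the retroviral message contains either probe site is not given in the sources used here, nor is whether either site lies in the deleted stretch of the allele, so these probes by themselves check neither the deletion nor the return of Rb.

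The widest differences came from probes that carry an identifier of digits and no gene annotation. Of 31 such probes, 4 were detected on either array, with WT Rb-HA intensities of 6540, 5459, 4720 and 976. The same 4 probes read 105, 77.1, 44.8 and 41.2 in Rb-deleted MEFs and 123, 82.5, 53 and 41.7 in parental MEFs. With ΔCdk Rb-HA they read 9491, 7488, 6993 and 1619. They were thus far higher on both arrays of infected cells than on either array of uninfected cells. The first pair differed by 6.31 (0.08) and 6.65 (0.13), and the other pair, undetected on the Rb-deleted array, were at least 152-fold and at least 31.7-fold higher on the normalised scale, from which background has been subtracted. Without background correction that pair differed by 6.68 and 4.56 on the log2 scale, which is less than those bounds. The other 27 probes of this kind read between 33.5 and 55.6 on the WT Rb-HA array. What the 4 probes target is not given in the files. They count among the 70 higher genes, and without them 66 remain.

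Genes of DNA replication made up the largest block of lower genes. Of 92 listed G1/S E2F targets, 73 were detected, 70 of them on both arrays, and 72 of the 73 lay below 0. More than 1.6-fold lower were 27 (37.0%, against 0.5% of all genes), none was higher by that margin, and the median difference was -0.53, against -0.02 over all genes. Of the 73, 62 lay below 0 by more than 2 bead standard errors. The median level of the list was 7.51 in Rb-deleted and 7.03 in WT Rb-HA MEFs, beside 6.67 in parental and 7.46 in ΔCdk Rb-HA MEFs. The only member not below 0 was Dbf4, the activating subunit of the Cdc7 kinase, at 0.01 (0.09). For the counts past 1.6-fold given below, the shares over all genes to set beside them are 0.5% lower and 0.573% higher. In a bulk sample, fewer cells in S phase and less of each message per cell cannot be told apart.

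Of the origin licensing and firing factors, 12 of 23 detected genes passed 1.6-fold, with a median of -0.71. The median was -0.46 with detection at p below 0.05 and -0.40 without a filter on dim probes, and 8 genes passed with an offset of 50. The MCM complex is the helicase that is loaded at origins in G1 phase and unwinds DNA in S phase, and all 6 of its subunits passed 1.6-fold by their brightest probe. Mcm6 read 10.16 after deletion alone and 8.93 with WT Rb-HA, beside 7.91 in the parental and 9.27 in the ΔCdk Rb-HA cells, a difference of -1.23 (0.08) between WT Rb-HA and Rb-deleted, the largest decrease among all genes. Mcm5 stood at 10.29 after deletion alone and 9.08 with WT Rb-HA, beside 8.37 in the parental and 9.90 in the ΔCdk Rb-HA cells, with a difference of -1.20 (0.05). Mcm2 was at 9.24 in Rb-deleted and 8.19 in WT Rb-HA MEFs, beside 7.24 in parental and 8.50 in ΔCdk Rb-HA MEFs, a difference of -1.05 (0.07). On each of these probes the WT Rb-HA value lay between the parental and the Rb-deleted value. Mcm4 differed by -0.85 (0.04), with its 2 other detected probes at -0.40 and -0.03. Mcm7 differed by -0.83 (0.12), with another detected probe at -0.56, and Mcm3 by -0.79 (0.11). A probe annotated only as similar to MCM3, LOC100045677, differed by -1.06 (0.10).

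Several factors that load and activate the helicase were lower as well. Cdt1, which delivers the MCM complex to origins, read 10.11 in Rb-deleted and 9.32 in WT Rb-HA MEFs, beside 8.68 in parental and 9.80 in ΔCdk Rb-HA MEFs, a difference of -0.79 (0.06). Cdc6, its partner in loading, read 7.11 after deletion alone and 6.35 with WT Rb-HA, beside 5.79 in the parental and 7.31 in the ΔCdk Rb-HA cells, a difference of -0.76 (0.11), and the other 3 Cdc6 probes were at background on both arrays. For Cdc6 the ΔCdk Rb-HA value was the highest of the 4, unlike for Cdt1. Wdhd1, which tethers the polymerase to the helicase, differed by -0.93 (0.09), the kinase Cdc7 by -0.85 (0.09), the GINS subunit Gins1 by -0.80 (0.13) and Mcm10, which helps to start unwinding, by -0.71 (0.11). Subunits of the origin recognition complex, which marks origins through the cycle, stayed within 1.6-fold, with Orc6l at -0.42 (0.05), Orc1l at -0.39 (0.19) and Orc3l at -0.03 (0.12).

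**Figure D2:**
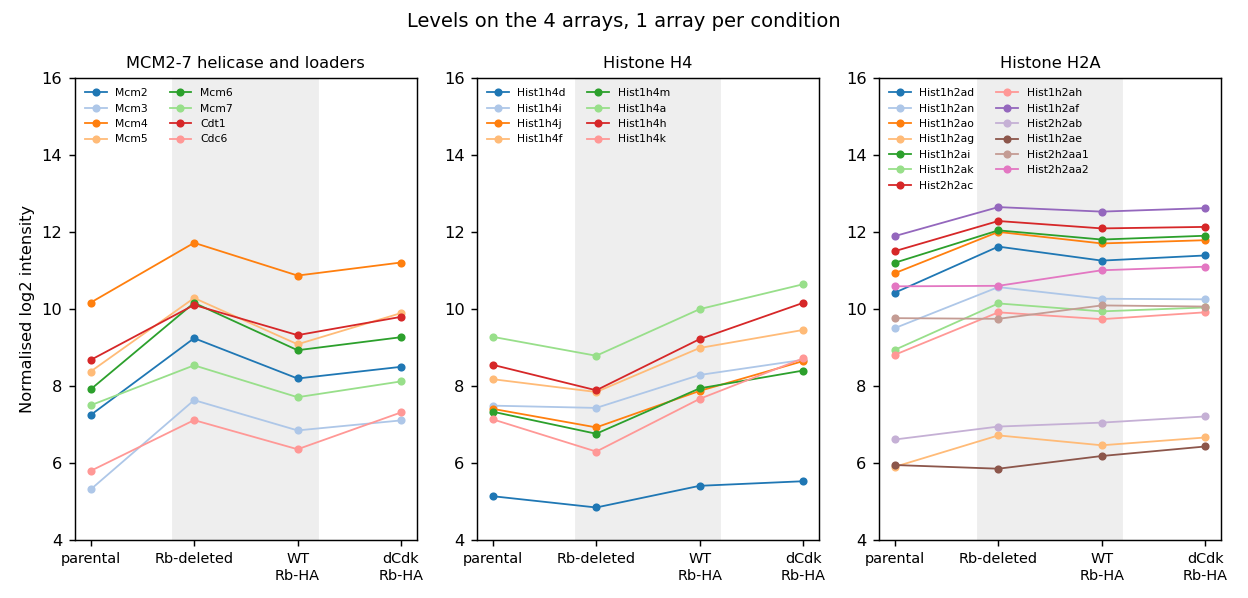
Normalised log2 intensity of single genes on the 4 arrays, with the WT Rb-HA and Rb-deleted columns shaded and lines joining the values of 1 gene. The MCM subunits, Cdt1 and Cdc6 are lower with WT Rb-HA than after deletion alone (for Mcm6, 8.93 against 10.16), the H4 genes are higher (for Hist1h4k, 7.66 against 6.29), and the H2A genes move by at most 0.40.

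Enzymes that copy and join DNA followed the same direction with smaller sizes. Of 10 detected polymerase and primase subunits 9 lay below 0 and 2 passed 1.6-fold, with a median of -0.43. Those that passed were Pold1, the catalytic subunit of polymerase delta, at -0.89 (0.06) and Pole, that of polymerase epsilon, at -0.87 (0.13). Prim1 of primase lay at -0.40 (0.20) and was undetected with WT Rb-HA. Without background correction or with an offset of 50, 1 gene of the list passed. Pole lay at -0.60 without that correction. Pole read 6.21 after deletion alone and 5.34 with WT Rb-HA, beside 5.33 in the parental and 5.63 in the ΔCdk Rb-HA cells. Pold4, the smallest subunit of polymerase delta, lay on the other side at 0.36 (0.08). Among the clamp, the clamp loader, the single-strand binding protein RPA and Okazaki fragment enzymes, all 14 detected genes were below 0 and 2 passed, with a median of -0.44. Lig1, the ligase that seals Okazaki fragments, read 8.93 in Rb-deleted and 7.80 in WT Rb-HA MEFs, beside 7.22 in parental and 8.25 in ΔCdk Rb-HA MEFs, a difference of -1.13 (0.09). The 3 other detected Lig1 probes lay between -0.90 and -0.25, with 1 of them past 1.6-fold. Rpa1, the large RPA subunit, differed by -0.81 (0.06), while the sliding clamp Pcna differed by -0.30 (0.12).

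Nucleotide synthesis stood out less. Of its 14 detected genes 13 were below 0, 1 passed 1.6-fold, and the median was -0.26. That gene was Rrm1, the large subunit of ribonucleotide reductase, at 8.68 in Rb-deleted and 7.88 in WT Rb-HA MEFs, beside 7.80 in parental and 8.24 in ΔCdk Rb-HA MEFs, a difference of -0.81 (0.07). Another detected Rrm1 probe lay at -0.50, and by the mean over detected probes no gene of the list passed. Rrm2, the partner of Rrm1, differed by -0.33 (0.07), and Rrm2b, the subunit induced through p53, lay at 0.33 (0.10). Thymidine kinase Tk1 differed by -0.58 (0.14) and thymidylate synthase Tyms by -0.26 (0.06).

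Repair and recombination genes were below 0 for all 17 detected members of 34 listed, with 4 past 1.6-fold and a median of -0.36. Without background correction or with an offset of 50, 1 passed, and without a filter on dim probes the median was -0.17. Ung, the glycosylase that removes uracil from DNA, read 8.86 after deletion alone and 7.78 with WT Rb-HA, beside 6.40 in the parental and 7.87 in the ΔCdk Rb-HA cells, a difference of -1.08 (0.09). The 2 other detected Ung probes lay at -0.64 and -0.61. Parp1, a sensor of DNA strand breaks, differed by -0.69 (0.06), with 2 other detected probes at -0.60 and -0.13. The Fanconi anemia gene Fancm differed by -0.68 (0.13). Of 13 detected replication checkpoint genes 1 passed, Timeless, which protects stalled forks, at -0.73 (0.12), and the list's median was -0.27. Timeless did not pass without background correction or with an offset of 50. Its partner Tipin differed by -0.53 (0.06) and the checkpoint mediator Clspn by -0.46 (0.10).

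Chromatin assembly and DNA methylation genes held 6 genes past 1.6-fold among 26 detected, with a median of -0.27. Chaf1b, a subunit of the CAF-1 chaperone that deposits histones behind the fork, read 8.91 in Rb-deleted and 7.69 in WT Rb-HA MEFs, beside 6.90 in parental and 8.40 in ΔCdk Rb-HA MEFs, a difference of -1.23 (0.07). Chaf1a, another CAF-1 subunit, differed by -0.85 (0.09). The factors that copy DNA methylation after replication also passed, Uhrf1 at 10.58 after deletion alone and 9.51 with WT Rb-HA, beside 9.11 in the parental and 10.14 in the ΔCdk Rb-HA cells, with a difference of -1.07 (0.06) and Dnmt1 with -0.86 (0.06). Cdca7, a chromatin factor linked to maintenance of DNA methylation, differed by -1.05 (0.06) and the nuclear lamina gene Lmnb1 by -0.70 (0.06). Another detected Lmnb1 probe lay at -0.55. The histone chaperone Nasp lay at -0.52 (0.05), and the polycomb subunits Ezh2 and Suz12 lay at -0.31 (0.08) and -0.02 (0.06).

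Among the regulators themselves, few passed 1.6-fold. Rbl1, which encodes p107, read 6.56 in Rb-deleted and 5.70 in WT Rb-HA MEFs, beside 5.71 in parental and 6.25 in ΔCdk Rb-HA MEFs, a difference of -0.87 (0.12), and was the only one of 9 detected Rb and E2F family genes to pass. Its 2 other probes were not detected on either array. E2f1, the activator E2F, read 9.61 after deletion alone and 9.07 with WT Rb-HA, beside 8.46 in the parental and 9.27 in the ΔCdk Rb-HA cells, a difference of -0.55 (0.06), while E2f3 and E2f4 lay at -0.03 (0.08) and 0.00 (0.12). Cyclin E2 (Ccne2) was the only one of 11 detected G1 cyclin and Cdk genes to pass, at -0.72 (0.13), and cyclin E1 (Ccne1) lay at -0.60 (0.11). Without background correction or with an offset of 50, no gene of either list passed, Rbl1 and Ccne2 included. The D-type cyclins, which activate Cdk4 and Cdk6, were at 0.13 (0.05) for Ccnd1, 0.12 (0.04) for Ccnd2 and -0.09 (0.07) for Ccnd3. No Cdk inhibitor gene of 8 detected passed. Cdkn1a, the p53-induced inhibitor p21, was measured by 3 probes at -0.15 (0.03), -0.07 (0.09) and 0.03 (0.09). Ccna2, the cyclin A2 gene and a further E2F target that the study followed, was not detected on either array.

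Mitotic genes were also shifted below 0, by less than the G1/S targets, and p53 targets were centred near 0. Of 66 listed G2/M genes 43 were detected, 35 of them below 0 and 2 past 1.6-fold (4.65%, against 0.5% of all genes), and the median was -0.24, or -0.13 without a filter on dim probes. Without background correction none of the list passed. Of the 43, 5 entered through the Rb-deleted array alone, where they were higher, and 1 through the WT Rb-HA array alone. Among the 37 detected on both arrays the median was -0.17 and 1 gene passed. Separase (Espl1) passed at -0.88 (0.14) but was undetected on the WT Rb-HA array and so at least 1.30-fold lower. The condensin subunit Ncapd2 passed at -0.76 (0.14), with another detected probe at -0.44. The mitotic cyclin Ccnb1 lay at -0.30 (0.08) and the transcription factor Foxm1 at 0.09 (0.12). Of 31 detected p53 targets none passed, 16 were below 0 and 15 above, and the median was -0.00. Mdm2, the ubiquitin ligase that restrains p53, lay at -0.24 (0.06) and Bax, an effector of apoptosis, at -0.18 (0.07). In the array's own annotation, 17 of the 48 annotated lower genes carried the process term DNA replication (35.4%), against 86 of 6806 annotated genes (1.26%), 17 carried cell cycle (35.4%, against 4.41%), 9 carried DNA repair (18.8%, against 1.79%) and 3 carried mitosis (6.25%, against 1.5%). None of the 39 annotated higher genes carried any of these terms.

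**Figure D3:**
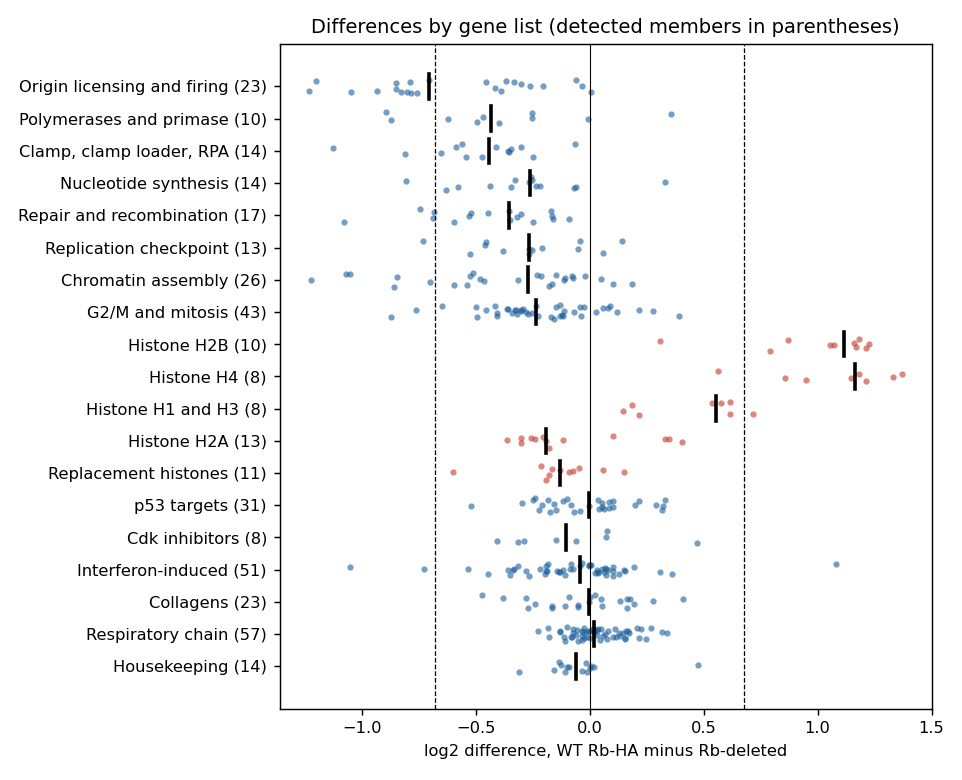
Each point is the log2 difference, WT Rb-HA minus Rb-deleted, of 1 detected gene of the list named at the left, with histone lists in red, black bars at the medians and dashed lines at 1.6-fold. Replication lists are shifted below 0 (median -0.71 for origin licensing and firing), H2B and H4 above 0 (medians 1.12 and 1.16), and the p53, collagen and respiratory chain lists are centred near 0.

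Core histones went both ways, by family. H2B genes, which package DNA as a dimer with H2A, were detected for 10 of 17 listed, 9 were more than 1.6-fold higher with WT Rb-HA (90.0%, against 0.573% of all genes), and the median was 1.12. H4 genes were detected for 8 of 14 listed, 7 passed (87.5%), and the median was 1.16. Hist1h2bm read 7.68 in Rb-deleted and 8.90 in WT Rb-HA MEFs, beside 8.55 in parental and 9.27 in ΔCdk Rb-HA MEFs, a difference of 1.22 (0.09). Hist1h4k read 6.29 after deletion alone and 7.66 with WT Rb-HA, beside 7.13 in the parental and 8.72 in the ΔCdk Rb-HA cells, a difference of 1.37 (0.12), and Hist1h4h read 7.89 on the Rb-deleted array and 9.22 on the WT Rb-HA array, a difference of 1.33 (0.06). The Rb-deleted array was the lowest and the ΔCdk Rb-HA array the highest of the 4 for each of these genes. A further probe, LOC100041230, annotated as similar to histone H4, differed by 1.31 (0.10). Members within 1.6-fold were Hist1h2bg at 0.31 (0.16) and Hist1h4d at 0.56 (0.18). The latter was undetected on the Rb-deleted array, and its difference was 0.34 without background correction. Members of these families are nearly identical in sequence, so how far each probe reads its own gene alone is uncertain.

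H2A genes behaved otherwise. Of 13 detected, none passed 1.6-fold, 9 were below 0 and the median was -0.19, with a range from -0.36 to 0.40. Hist1h2ad read 11.63 in Rb-deleted and 11.26 in WT Rb-HA MEFs, beside 10.43 in parental and 11.39 in ΔCdk Rb-HA MEFs, a difference of -0.36 (0.05), so that its Rb-deleted value was the highest of the 4, not the lowest. H3 and H1 genes lay between these families, with all 8 detected above 0, a median of 0.56 and 1 past 1.6-fold, Hist1h3f at 0.72 (0.09). Without a filter on dim probes that median was 0.18, and without background correction no H3 or H1 gene passed. The linker histone Hist1h1c lay at 0.61 (0.06). Replacement histones, which are made through the whole cycle, had a median of -0.13 over 11 detected, with H2afz at -0.08 (0.04) and H3f3a at 0.15 (0.04).

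Many H2A and H2B genes sit head to head and share the DNA between their start sites, so the families were set side by side by locus. How far each probe reads its own gene alone is uncertain, so the pairs may not be separate readings. In RefSeq (GRCm38.p6), 5 pairs of detected H2A and H2B genes on chromosome 13 start on opposite strands 164 to 249 bases apart. In 4 of the 5 the H2B gene was more than 1.6-fold higher with WT Rb-HA and its H2A neighbour was below 0. Hist1h2bf read 9.77 after deletion alone and 10.94 with WT Rb-HA, beside 10.54 in the parental and 11.29 in the ΔCdk Rb-HA cells, a difference of 1.17 (0.06), while Hist1h2ad differed by -0.36 (0.05), a gap of 1.53. For Hist1h2bk and Hist1h2ah the values were 1.18 (0.06) and -0.18 (0.07), for Hist1h2bj and Hist1h2ag 1.07 (0.07) and -0.26 (0.14), and for Hist1h2bn and Hist1h2ak 1.05 (0.07) and -0.21 (0.05). In the fifth pair both genes lay close together, Hist1h2bg at 0.31 (0.16) and Hist1h2ae at 0.33 (0.11). The segment between the starts of the first pair is printed as the DNA that lies upstream of both genes. It is chr13:23574208-23574380 on the minus strand of GRCm38.p6, 173 bases, read toward Hist1h2bf, and capitals mark CCAAT or its complement ATTGG, a sequence bound by the factor NF-Y.
Hist1h2ad to Hist1h2bf: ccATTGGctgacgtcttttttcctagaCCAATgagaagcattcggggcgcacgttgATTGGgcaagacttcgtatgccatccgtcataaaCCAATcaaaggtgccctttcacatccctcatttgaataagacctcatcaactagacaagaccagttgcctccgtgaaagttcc
It held 4 CCAAT sequences and no TATAAA on either strand. For an H4 gene, the 250 bases upstream of Hist1h4k, chr13:21750554-21750803 on the minus strand, are shown with TATAAA in capitals.
Hist1h4k: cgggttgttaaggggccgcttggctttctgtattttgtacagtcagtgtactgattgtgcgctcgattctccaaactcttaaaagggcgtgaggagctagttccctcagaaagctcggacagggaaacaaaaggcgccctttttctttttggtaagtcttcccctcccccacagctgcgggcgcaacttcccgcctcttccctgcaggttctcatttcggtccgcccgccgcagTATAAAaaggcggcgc
Over the upstream windows, CCAAT on either strand was present for 8 of 8 matched H2B genes and 13 of 13 H2A genes but for 2 of 8 H4 genes, against 40.3% of the matched genes analysed and 33.8% of all windows. TATAAA on the gene's strand was present for 5 of 8 H4 genes (62.5%), 3 of 13 H2A genes (23.1%) and 1 of 8 H2B genes (12.5%), against 4.93% of the matched genes analysed and 7.59% of all windows. The E2F words given above were present for 3 of 8 H2B, 3 of 13 H2A and 1 of 8 H4 genes. These matches describe the sequences only.

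**Figure D4:**
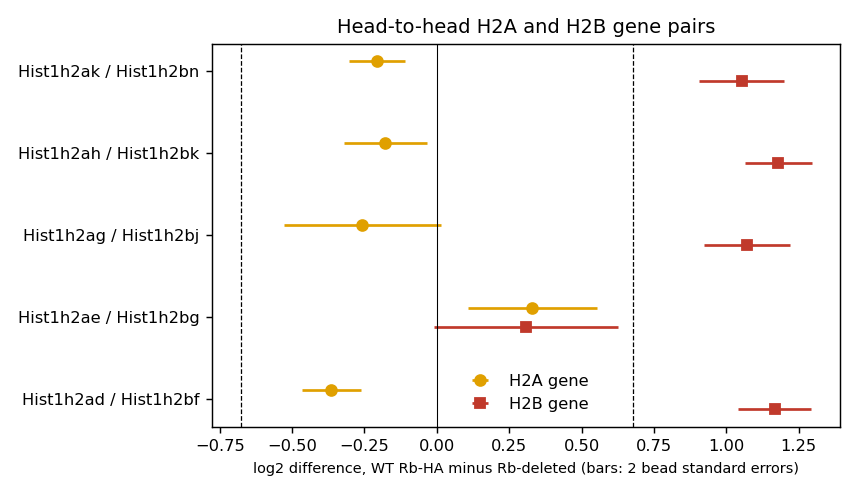
Log2 difference, WT Rb-HA minus Rb-deleted, of 5 pairs of H2A (yellow circles) and H2B (red squares) genes that start head to head, with bars of 2 bead standard errors and dashed lines at 1.6-fold. In 4 pairs the H2B gene lies between 1.05 and 1.18 and its H2A neighbour between -0.36 and -0.18. Probes of these families may not read 1 gene each.

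Outside replication and histones, the higher genes were a mixed group, 53 of the 70 lying in no histone list. The largest difference with a gene symbol was Cma2, a chymase of the mast cell protease locus, which read 6.04 after deletion alone and 7.81 with WT Rb-HA, beside 8.32 in the parental and 9.93 in the ΔCdk Rb-HA cells, a difference of 1.77 (0.10). Its neighbour Mcpt8, annotated as a mast cell protease, read 6.01 in Rb-deleted and 7.12 in WT Rb-HA MEFs, a difference of 1.11 (0.12). It read 7.57 in parental and 8.94 in ΔCdk Rb-HA MEFs. For both genes the Rb-deleted array was the lowest and the ΔCdk Rb-HA array the highest. Granzyme E (Gzme) was detected with WT Rb-HA and undetected after deletion alone, and was at least 1.09-fold higher. Of the 17 mast cell genes listed 6 were detected, 3 on both arrays, 2 on the WT Rb-HA array alone and 1 on the Rb-deleted array alone. Cma2 and Mcpt8 passed and were detected on both arrays. Gzme also passed, but it entered through the WT Rb-HA array alone and had to be higher there to be counted. Its bound of 1.09-fold does not reach the threshold. Of the other listed genes, Cpa3, Fcer1a, Mcpt4, Gzmb and Cma1 were at background on both arrays. Tpsab1, also of the list, was detected on both arrays, at 0.22 (0.16). Gzmd was detected on the WT Rb-HA array alone and did not pass, at 0.49 (0.14). Kit, the stem cell factor receptor, was detected on the Rb-deleted array and undetected with WT Rb-HA.

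Secreted factors added a few more. Of 38 detected chemokine and cytokine genes 26 were above 0, 2 passed upward and 1 downward, and the median was 0.11. Over all genes 0.573% passed upward and 0.5% downward. Without background correction 1 gene of the list passed upward and none downward. Il11, a cytokine of the IL-6 family, read 9.57 in Rb-deleted and 10.33 in WT Rb-HA MEFs, beside 10.54 in parental and 11.24 in ΔCdk Rb-HA MEFs, a difference of 0.76 (0.09). Ccl11, the eosinophil chemokine eotaxin, read 7.80 after deletion alone and 8.51 with WT Rb-HA, beside 8.14 in the parental and 10.27 in the ΔCdk Rb-HA cells, a difference of 0.71 (0.06). Ccl4, which attracts monocytes, was lower by its brightest probe, at -0.70 (0.09), while its other detected probe lay at -0.08. Of 18 detected metalloproteinase and inhibitor genes 1 passed, the stromelysin Mmp10 at 0.81 (0.06), and the median of the list was 0.01. Dnali1, a dynein light chain, was detected on the WT Rb-HA array alone and was at least 1.81-fold higher.

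**Figure D5:**
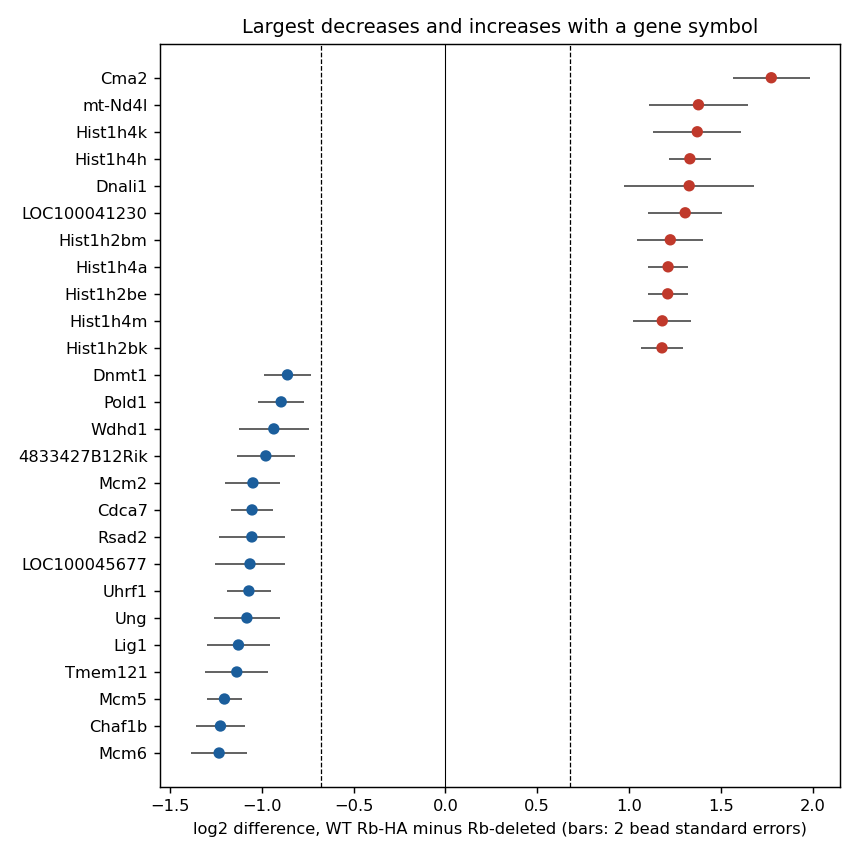
The 15 largest decreases (blue) and the genes with a symbol among the 15 largest increases (red) that passed 1.6-fold with and without background correction, as log2 difference, WT Rb-HA minus Rb-deleted, with bars of 2 bead standard errors and dashed lines at 1.6-fold. Decreases run from -0.86 (Dnmt1) to -1.23 (Mcm6) and increases from 1.18 (Hist1h2bk) to 1.77 (Cma2).

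Among the lower genes, 29 of the 61 lay in no cell cycle or replication list used here. These lists are not complete. The 29 include LOC100045677, the probe similar to MCM3 given above. They also include Cenpi, a centromere protein gene, undetected with WT Rb-HA and at least 1.28-fold lower. Tmem121, a transmembrane protein gene, read 8.17 after deletion alone and 7.03 with WT Rb-HA, beside 7.19 in the parental and 7.14 in the ΔCdk Rb-HA cells, a difference of -1.14 (0.09). The Rb-deleted array alone was high for this gene. The RIKEN transcript 4833427B12Rik differed by -0.98 (0.08), and Stmn1, which encodes the microtubule regulator stathmin, by -0.70 (0.11).

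Among interferon-induced genes, 51 of 65 listed were detected and the median was -0.04, close to that of all genes. Past 1.6-fold were Rsad2, the antiviral protein viperin, which read 7.82 in Rb-deleted and 6.77 in WT Rb-HA MEFs, beside 10.14 in parental and 6.27 in ΔCdk Rb-HA MEFs, a difference of -1.05 (0.09), and Ifi27 at -0.73 (0.08), with Ifi205 the only one higher, at 1.08 (0.14). The antiviral genes Ifit3 and Usp18 lay at 0.10 (0.06) and 0.07 (0.07). Macrophage markers were detected for 19 of 31 listed, 4 of them on the Rb-deleted array alone, and 16 of the 19 were below 0, with a median of -0.19 and none past 1.6-fold. Their summed level was 11.5 on the log2 scale for the Rb-deleted array and 11.3 for the WT Rb-HA array, and their part in the differences of Ccl4 and Rsad2 was not tested.

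The cells were labelled as fibroblasts, and all 18 fibroblast markers were detected, with a median difference of 0.06 and none past 1.6-fold, among them Vim at 0.25 (0.08), Col1a1 at 0.19 (0.07) and Pdgfra at -0.45 (0.07). Markers of other cell types were detected for 4 of 12 endothelial, 5 of 12 epithelial, 6 of 14 muscle, 9 of 18 neural and 6 of 15 adipocyte genes, with none past 1.6-fold. Collagens had a median of -0.01 over 23 genes, respiratory chain subunits 0.02 over 57 and housekeeping genes -0.06 over 14, with no gene past 1.6-fold in any of the 3 lists.

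A second look at the same transcripts came from genes with more than 1 detected probe. Of the 131 genes past 1.6-fold, 24 had another detected probe, 12 lower and 12 higher. For the lower genes, 19 of 19 other probes were also below 0 and 3 were past 1.6-fold. For the higher genes, 15 of 15 were above 0 and 8 were past 1.6-fold. These probes shared the RNA and the arrays of the first ones and are not replicates.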

How the data were processed

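Expression was measured on 4 arrays of the Illumina MouseWG-6 v2.0 BeadChip type, 1 per condition, with the condition taken from the sample labels. The array names share the same number and differ in a letter from A to D. The authors deposited the mean bead intensity of each of 45281 probes, not normalized between arrays, with a detection p-value against negative control beads, the bead standard error as an intensity and the number of beads, which was used only as a check (median 44 per probe on each array). All deposited columns were mapped to a sample, leaving 0 out. The symbols of 40 probes read as dates in the deposited table, and 34 were restored through the Entrez number. Image processing and summarization settings are not given in the sources used here.

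Background in the deposited intensities was removed with limma 3.58.1 (R 4.3.3) by normexp, inferred from the detection p-values, with an offset of 16. Quantile normalization over the 4 arrays and a log2 transform followed. On the arrays, 15950 to 16740 probes had a detection p-value below 0.01. The bead standard error was carried through each array's own mapping. Where a probe was undetected on 1 array, a lower bound on the fold was computed against the higher of its own value and the lowest detected value there. The number of arrays limits the precision, and depth in reads does not apply. The normalization was also run on simulated arrays, made from the Rb-deleted array with bead noise and known changes. These carry no variation between cultures or arrays, so they cannot check that error. Python 3.11.15, numpy 2.4.6 and pandas 2.3.3 were used.

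The members, gene lists, alternatives and promoter motifs were chosen with earlier results of these data known. Genes were named by rule: Rb1, the 15 largest differences each way that passed 1.6-fold with and without background correction and exceeded 2 bead standard errors, of each list the members past 1.6-fold, the 4 brightest and the 3 with the largest difference, and the study's 8 panel genes. The head-to-head histone pairs, Gloxd1, Sod3, Ltb4r1, F830002E14Rik, the probes without annotation, the genes of the closing observations and some further genes were named after their values had been seen. Promoters were matched by Entrez number, then by current and older symbols. Alternatives changed background correction, offset, normalization, detection filter, probes per gene and fold threshold. Some genes that the naming rule covers are not reported here.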

Additional observations from a re-analysis of the deposited data

How the results depend on the processing

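The counts of genes past 1.6-fold depended on how dim probes were handled. With an offset of 50 there were 32 higher and 23 lower genes, and without background correction 37 and 27, against 70 and 61. A 1.5-fold threshold gave 115 and 117 genes, and a 2-fold threshold gave 24 and 11, with 8 lower G1/S E2F targets in place of 27. Without a filter on dim probes the median of the H2B and H4 list was 0.87 in place of 1.15, since 9 more undetected members then entered. Under every other alternative run these counts of all higher, all lower and G1/S genes stayed within 1.5 times, and the median of the G1/S list ranged from -0.55 to -0.43. Medians of smaller lists moved more. Across the settings that of origin licensing ranged from -0.72 to -0.40, of polymerase and primase from -0.47 to -0.28, of repair from -0.42 to -0.17, of G2/M genes from -0.24 to -0.13, of H1 and H3 from 0.18 to 0.57 and of mast cell genes from 0.06 to 1.11. The direction of all 69 named genes past 1.6-fold was the same under each alternative that gave a value, although 82 of 2283 single values moved by more than 2 bead standard errors, 45 of them under the mean over detected probes. The median of all genes stayed between -0.02 and -0.00. No paired analysis was possible because each condition has 1 array and the labels carry no replicate numbers. The bead error covers variation within an array, and variation between cultures, infections or hybridizations was not measured.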

Other observations

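Genes of the HIN-200 family, interferon-activated proteins that bind DNA, were higher with WT Rb-HA although the interferon-induced list as a whole was centred near 0. They were picked after their values had been seen. Of 8 symbols of the family on the array 4 were detected, and all 4 passed 1.6-fold, but without background correction only Ifi205 did, at 0.72. Ifi205 read 5.09 in Rb-deleted and 6.17 in WT Rb-HA MEFs, beside 6.29 in parental and 6.53 in ΔCdk Rb-HA MEFs, a difference of 1.08 (bead standard error 0.14). LOC100044430, annotated as similar to Ifi205, differed by 0.82 (0.13), LOC638301, similar to Ifi204, by 0.78 (0.10) and Ifi202b by 0.70 (0.09), with another detected Ifi202b probe at 0.21. Their sequences are alike, so the 4 probes may not read 4 separate genes. Aim2, Ifi203, Ifi204 and Mnda were at background on both arrays.

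Mitochondrially encoded transcripts were detected for 19 of 20 symbols, also picked after their values had been seen. Those of ND4L, a complex I subunit, stood apart. mt-Nd4l read 8.18 after deletion alone and 9.56 with WT Rb-HA, beside 9.87 in the parental and 9.62 in the ΔCdk Rb-HA cells, a difference of 1.38 (0.14), and mtDNA_ND4L read 9.46 after deletion alone and 10.35 with WT Rb-HA, beside 10.79 in the parental and 10.52 in the ΔCdk Rb-HA cells, a difference of 0.89 (0.09). The other 17 lay between -0.11 and 0.57. On both ND4L probes the Rb-deleted array was the low one and the other 3 lay close together. ND4L shares its transcript with ND4, whose symbols mt-Nd4 and mtDNA_ND4 differed by 0.08 (0.05) and 0.05 (0.05).

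Genes of the cornified envelope of skin, Ivl (involucrin) and Lce1f, were also past 1.6-fold higher, at 0.89 (0.08) and 0.72 (0.16), while no detected keratin of the epithelial list did so. Krt19 lay at 0.64 (0.16), Krt14 at 0.46 (0.10), Krt8 at -0.07 (0.14) and Krt18 at -0.11 (0.14). Ivl read 7.50 in Rb-deleted and 8.39 in WT Rb-HA MEFs, beside 8.72 in parental and 10.04 in ΔCdk Rb-HA MEFs. Upk3b, a uroplakin, differed by 0.82 (0.10) and Serpinb2, a plasminogen activator inhibitor, by 0.82 (0.06). Without background correction Lce1f and Upk3b did not pass, at 0.47 and 0.63, while Ivl and Serpinb2 did, at 0.81 and 0.80. Another detected Ivl probe lay at 0.59 and another Upk3b probe at 0.95. What these genes share was not tested.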
